A study of Arabidopsis thaliana with 4 samples.

Results

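GH3.3 (locus AT2G23170, on chromosome 2) encodes an enzyme of the GH3 family, the acyl acid amido synthetases of plants. It was chosen by its measured signal, which was higher in nlp7-1 roots than in wild-type roots, and it is 1 of the 13286 genes with a probe set of their own in these data. Its genotype difference is therefore described without a test. The samples were whole roots of Arabidopsis thaliana at an age given as 5 dai, cut off where root and hypocotyl meet. The 2 genotypes were wild-type Col-0 (hereafter Col-0) and nlp7-1, a mutant of the nitrate-response transcription factor NLP7 in the same Col-0 ecotype, with 2 biological replicates each of about 60 pooled roots. All plants grew untreated on 1x MS agar at 22 °C under days of 16 h, and each sample was hybridised to 1 Affymetrix ATH1 array. The mutant is 1 allele, and its plants carry the lesion in all tissues, so the difference is that of whole roots of 1 line.

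The GH3 enzymes join small plant acids to amino acids. Several of them, GH3.3 among them, act on the auxin indole-3-acetic acid, and this conjugation lowers the pool of free hormone. GH3.3 is known as an early auxin-inducible gene, so its transcript is often read together with the Aux/IAA repressors, the auxin-synthesis genes and the other GH3 genes. In hypocotyls, GH3.3 is known to act with GH3.5 and GH3.6 in the formation of adventitious roots.

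The 4 arrays had been scaled by the authors to a common mean signal of 250.0 after trimming 2% at each end, and their median signals were 97.5 to 101. The 2 wild-type arrays correlated at r = 0.978 and the 2 nlp7-1 arrays at 0.986 across the 13648 probe sets above the filter on low signals. Pairs of different genotype reached 0.961 to 0.977, the highest being the first replicates of each genotype. Both pairs within a genotype were above every pair between genotypes, but for wild type only narrowly. Of 11 root marker genes, 2 had a probe set naming them, and their summed signal was 646 and 406 in Col-0 and 726 and 607 in nlp7-1. Of 8 shoot markers 3 had one, with a summed signal of 813 and 1009 in Col-0 and 664 and 793 in nlp7-1. The root sums of the genotypes overlapped and the shoot sums did not, but single markers differed from their sums. Of the root markers EXPA7, the stronger signal, overlapped. AT1G65570 did not, with 74.4 and 39.6 in Col-0 and 119 and 91.4 in nlp7-1. Of the shoot markers RCA and LHCB4.2 overlapped. LHCB4.1 did not, with 336 and 479 in Col-0 and 224 and 296 in nlp7-1. Neither AT1G65570 nor LHCB4.1 passed the test described below (limma adjusted p = 0.280 and 0.265). The 25S rRNA control gave 5005 and 5318 in Col-0 and 6180 and 6248 in nlp7-1, so it separated the genotypes too. The part of these differences in the result for GH3.3 was not tested.

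GH3.3 gave a MAS5 signal of 148 and 193 in the 2 wild-type samples and of 328 and 368 in the 2 nlp7-1 samples. Both mutant samples lay above both wild-type samples, and the gap between the genotypes was wider than the gap within either. Its mean was 170 ± 31 for Col-0 and 348 ± 28 for nlp7-1 (SD, n = 2). On the log2 scale the mutant was higher by 1.04 ± 0.16 (SE of the limma fit), or 2.06-fold. Taken pair by pair, each mutant sample against each Col-0 sample, the 4 differences ranged from 0.77 to 1.31 on that scale, or 1.71-fold to 2.49-fold. Within wild type the replicates differed by 0.38 and within nlp7-1 by 0.16. All 4 values were above the signal of 59.4 at which the filter was set. Both nlp7-1 samples also exceeded both wild-type samples in 23.2% of the probe sets tested, and since GH3.3 was picked for its difference nothing is read from that. In pooled roots, a change in the share of cells that express GH3.3 and a change in its RNA per cell cannot be told apart.

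**Figure D1:**
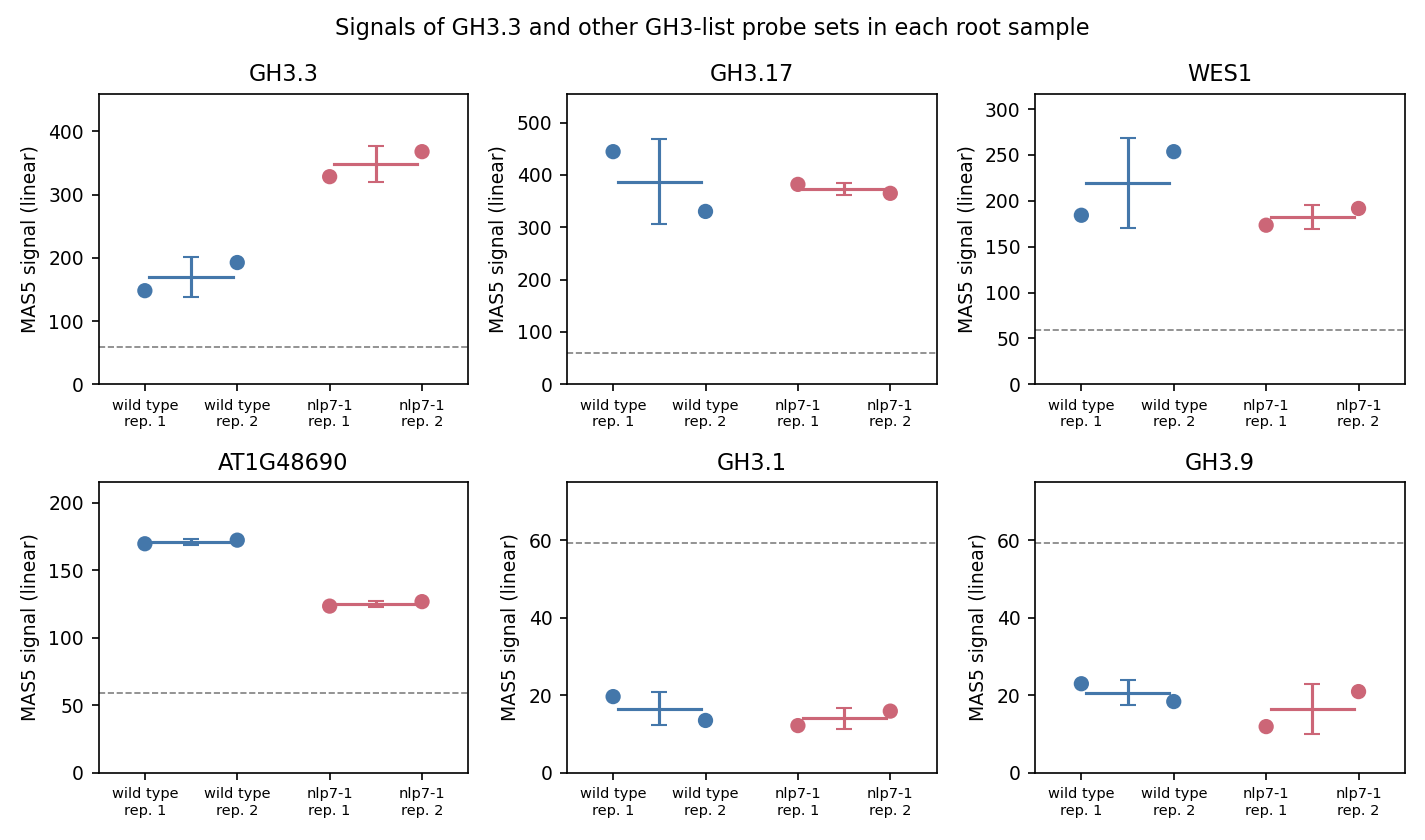
Each panel plots the MAS5 signal (linear, each panel with its own axis from 0) of 1 gene in the 4 samples, with the mean and SD of each genotype (n = 2) and the filter level of 59.4 dashed. GH3.3 lay at 148 and 193 in wild type and at 328 and 368 in nlp7-1, while GH3.17 and WES1 overlapped between genotypes and GH3.1 and GH3.9 stayed below the filter level.

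None of the other GH3 genes that could be tested was higher in the mutant on average. A list of 20 GH3 loci was used, of which 11 besides GH3.3 had a probe set naming a single gene. Only 3 of these, GH3.17, WES1 and AT1G48690, were above the filter and entered the test. Of the 3, 0 passed in limma at an adjusted p under 0.05, against 2.27% of all probe sets tested, and 1 had an unadjusted p under 0.05, against 13.2%. Their log2 differences, from -0.45 to -0.04 with a median of -0.25, were all below 0, while the median over all probe sets tested was 0.0002.

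GH3.17, whose enzyme conjugates indole-3-acetic acid mainly to glutamate, gave signals of 445 and 330 in Col-0 and 382 and 365 in nlp7-1. The mutant samples fell between the wild-type samples. The log2 difference was -0.04 ± 0.16 (SE), with a 95% interval of -0.43 to 0.36 and a limma adjusted p of 0.952. The sign turned to 0.18 without wild type replicate 1, so no direction is given.

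WES1, which the annotation also lists as GH3.5, encodes an enzyme known to act on both auxin and salicylic acid. Its signals were 184 and 254 in Col-0 and 173 and 192 in nlp7-1. The second mutant sample was above the first wild-type sample, so the genotypes overlapped. The log2 difference was -0.25 ± 0.18, with a 95% interval of -0.68 to 0.19 and a limma adjusted p of 0.626. It ran from -0.48 without wild type replicate 1 to -0.02 without wild type replicate 2. WES1 acts in the same conjugation step as GH3.3, and its mutant samples did not exceed both wild-type samples.

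AT1G48690, which the annotation gives by locus only and which entered through the list, gave 170 and 172 in Col-0 and 123 and 127 in nlp7-1. The genotypes did not overlap, with the mutant lower, as 20.9% of all probe sets tested also were. Its log2 difference was -0.45 ± 0.13 and did not pass the test (limma adjusted p = 0.188).

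The 8 other listed genes with a probe set were below the filter, with single signals from 1.36 to 102, and were not tested. GH3.1, whose enzyme belongs to the auxin-conjugating group, gave 19.6 and 13.5 in Col-0 and 12.2 and 15.9 in nlp7-1. GH3.9, known from its mutant's altered root growth, gave 23.0 and 18.4 in Col-0 and 11.9 and 20.9 in nlp7-1. Both genes overlapped between genotypes at signals where no difference can be read. The other 6 are known here by locus only. Of these, AT1G48660, AT1G48670, AT5G13350 and AT5G13380 overlapped between genotypes. AT5G51470 was higher in both nlp7-1 samples, with 24.3 and 26.1 in Col-0 and 39.0 and 31.0 in nlp7-1. Its untested log2 difference was 0.46, and 0.11 with a pseudocount of 100. AT1G23160, on chromosome 1, was also higher in both. It gave 37.0 and 30.2 in Col-0 and 44.9 and 102 in nlp7-1, the 102 being the only one of its values above the filter level. Its untested log2 difference of 1.02 was 0.42 without nlp7-1 replicate 2, 1.61 without nlp7-1 replicate 1 and 0.36 with a pseudocount of 100, so its size rests on that sample. The 20 tested genes nearest to AT1G23160 in gene order had a median log2 difference of 0.92, and those nearest to GH3.3 one of 0.03. The remaining 8 listed loci, which include GH3.4 and the genes also known as GH3.2 and GH3.6, had no probe set naming them alone and are not analysed here. A further probe set matched 2 listed loci at once and was left out.

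The wider auxin pathway was followed through 9 lists with 222 loci, from synthesis and inactivation to transport, perception and response. Only 21 of these had a named probe set and 9 were above the filter. The lists for conjugate hydrolysis, perception, transport, ARF factors and SAUR genes had 0 members with a named probe set. In limma 0 of the 9 passed at an adjusted p under 0.05, against 2.27% of all probe sets tested, and 0 had an unadjusted p under 0.05, against 13.2%. Their log2 differences ran from -0.33 to 0.19, with 3 above and 6 below 0 and a median of -0.04. In 3 of the 9, or 33.3%, the genotypes did not overlap, against 44.1% of all probe sets tested.

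**Figure D2:**
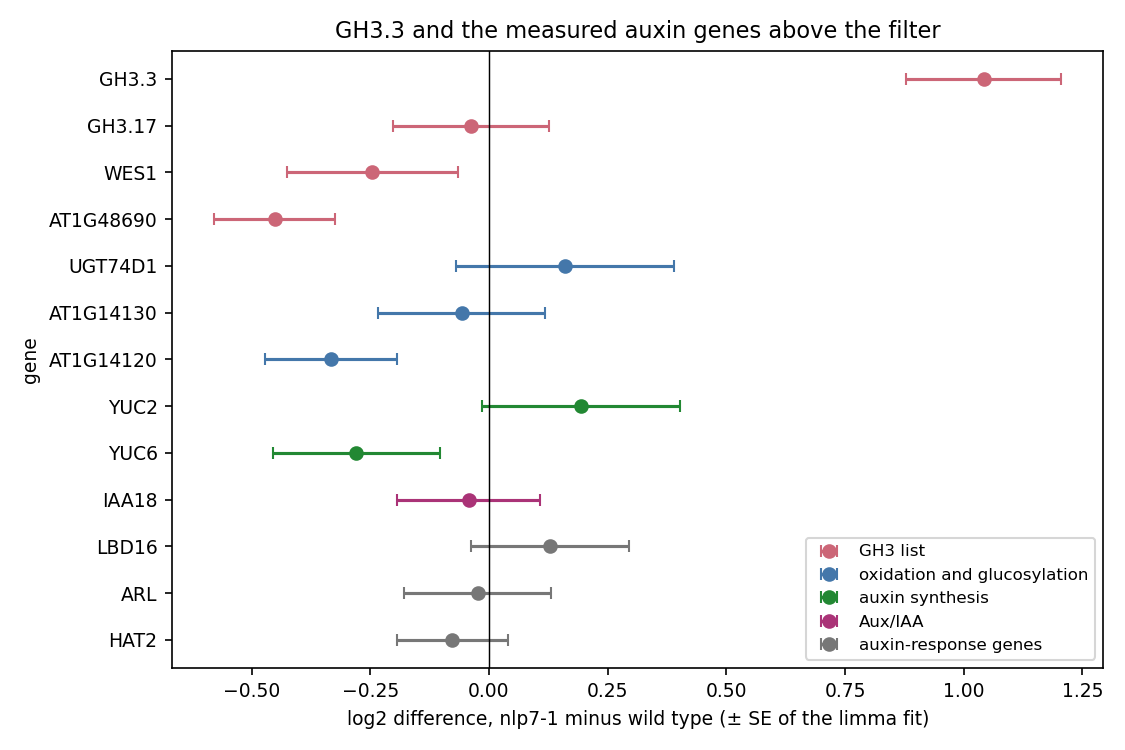
Points are the log2 differences (nlp7-1 minus wild type, horizontal axis) of the 13 genes of the GH3 and auxin lists above the filter. Bars are 1 SE of the limma fit, and colours mark the list. GH3.3, picked for its difference, stands at 1.04, and the other 12 lie between -0.45 and 0.19.

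Auxin synthesis was represented by YUC2 and YUC6, flavin monooxygenases that make indole-3-acetic acid. YUC2 gave signals of 73.9 and 58.3 in Col-0 and 81.3 and 69.3 in nlp7-1, which overlapped (log2 difference 0.19 ± 0.21, limma adjusted p = 0.757). YUC6 gave 76.5 and 74.7 in Col-0 and 62.7 and 61.9 in nlp7-1, without overlap (log2 difference -0.28 ± 0.18, limma adjusted p = 0.571). Neither passed the test, and their differences had opposite signs. YUC11 and YUC4 of the same family were below the filter.

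Other routes of auxin inactivation were represented by UGT74D1 and by 2 loci that the annotation does not name. UGT74D1, a glucosyltransferase that acts on auxin and its oxidised form, gave 1028 and 619 in Col-0 and 904 and 879 in nlp7-1. Its mutant samples lay between its wild-type samples (log2 difference 0.16 ± 0.23, limma adjusted p = 0.827). AT1G14120 gave 667 and 567 in Col-0 and 524 and 455 in nlp7-1, a log2 difference of -0.33 ± 0.14 without overlap (limma adjusted p = 0.380). For AT1G14130 the log2 difference was -0.06 ± 0.18, with overlap (limma adjusted p = 0.926).

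The genes above the filter on the lists of Aux/IAA and early response genes had log2 differences from -0.08 to 0.13, and none passed the test. The median absolute log2 difference over all probe sets tested was 0.14. IAA18, an Aux/IAA repressor, gave 167 and 173 in Col-0 and 184 and 148 in nlp7-1 (log2 difference -0.04 ± 0.15, limma adjusted p = 0.938). LBD16, a transcription factor of lateral root initiation that lies downstream of auxin, gave 94.6 and 116 in Col-0 and 109 and 120 in nlp7-1. Its samples overlapped between genotypes (log2 difference 0.13 ± 0.17, limma adjusted p = 0.806). HAT2, an auxin-inducible homeodomain gene, gave 253 and 244 in Col-0 and 231 and 240 in nlp7-1, without overlap (log2 difference -0.08 ± 0.12, limma adjusted p = 0.841). ARL, an ARGOS-like gene of cell expansion that entered through the list, had a log2 difference of -0.02 ± 0.15 (limma adjusted p = 0.968). The 12 listed auxin genes below the filter, 6 of them Aux/IAA genes, had single signals from 1.54 to 55.5. These values are too low to set beside that of GH3.3.

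None of the nearest tested genes around GH3.3 on chromosome 2 had a rise as large as its own. Among the 5 nearest tested genes with a name on each side, the log2 differences ran from -1.84 to 0.42. Of these 10 genes 1 passed the test, against 2.27% of all probe sets tested: AT2G23270, which was lower in nlp7-1. That gene lies 10 protein-coding genes from GH3.3 and gave 114 and 178 in Col-0 and 38.6 and 40.8 in nlp7-1 (log2 difference -1.84 ± 0.25, limma adjusted p = 0.0231). Both nlp7-1 values were below the filter level of 59.4, so it entered the test only through its Col-0 signals. Its pass is therefore not read as a result. The adjoining gene AT2G23160 was below the filter, with 18.6 and 23.5 in Col-0 and 40.2 and 20.5 in nlp7-1. UGT84B2 and UGT84B1, which encode glucosyltransferases that can use auxin, lie 8 and 9 protein-coding genes away, and their signals of 1.54 to 16.3 were too low for a comparison.

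**Figure D3:**
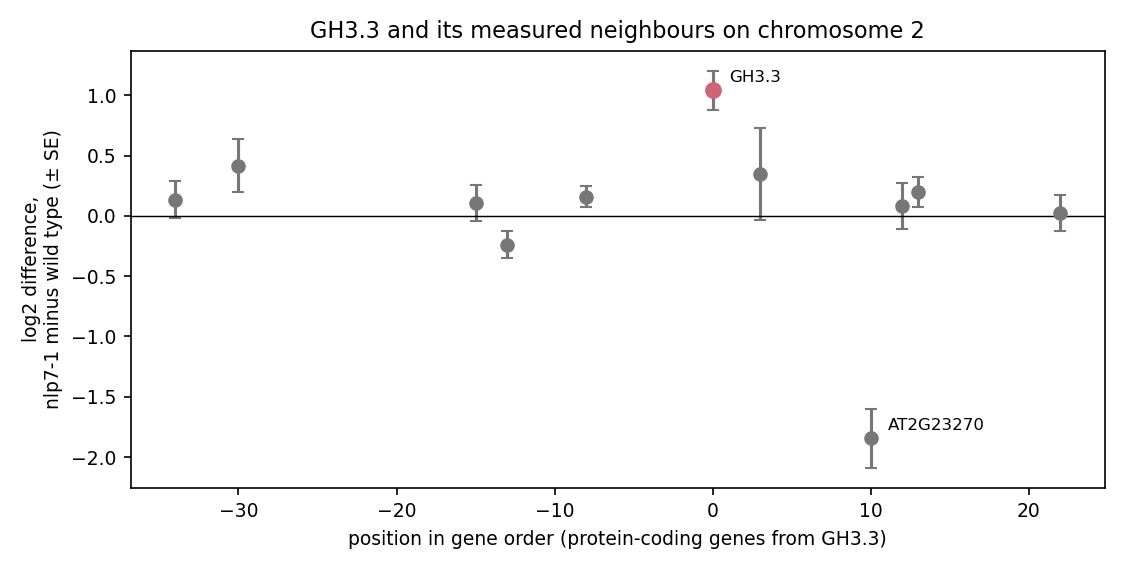
The log2 difference (nlp7-1 minus wild type, vertical axis, ± SE of the limma fit) of GH3.3 and of the 5 nearest tested genes with a name on each side is plotted against the count of protein-coding genes from GH3.3. GH3.3 is at 1.04, AT2G23270 at -1.84, and the other 9 lie between -0.24 and 0.42.

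Of the 7320 named genes tested, 52 had a larger positive log2 difference than GH3.3, whether or not they passed the test. Of these, 41 lie on chromosome 1, that is 78.8% of the 52, where chromosome 1 holds 25.7% of the genes tested. For 38 of the 41 the median log2 difference of the 20 nearest tested genes was above 0.5. On the other chromosomes 11 of the named genes exceeded GH3.3, of which 5 passed the test, against 2.27% of all probe sets tested. As the 11 were picked by the same difference that is tested, nothing is read from that count. AT4G32950, which passed, had 47.2 and 53.1 in Col-0, below the filter level of 59.4, and 145 and 163 in nlp7-1. It entered the test only through its nlp7-1 signals. Of the 11, only AT2G27080 shares chromosome 2 with GH3.3, and it did not pass (limma adjusted p = 0.0851). SWEET11, a sucrose transporter gene, passed (limma adjusted p = 0.0430), with 87.6 and 67.0 in Col-0 and 151 and 184 in nlp7-1. XTH18, a xyloglucan endotransglucosylase gene of the cell wall, was among the 11 but did not pass (limma adjusted p = 0.0648), with 295 and 193 in Col-0 and 497 and 492 in nlp7-1. The genes named singly here were picked after their values were seen.

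The profile over the 4 samples was compared between genes by the root mean square difference of their centred log2 signals. The 5 nearest to GH3.3 among the named probe sets tested were AT1G22790, AT1G21050, AT1G21670, AT1G26665 and AT1G22970, at distances of 0.034 to 0.057, where the median over all was 0.55. AT1G22790 gave 149 and 204 in Col-0 and 352 and 382 in nlp7-1, nearly the signals of GH3.3, though levels of different probe sets are not comparable. All 5 lie on chromosome 1 among neighbours whose median log2 difference was 0.74 to 0.85. The nearest gene on another chromosome was AT4G21870, 22nd in order of distance at 0.12, with 73.9 and 80.8 in Col-0 and 133 and 152 in nlp7-1. It was looked up after the first 5 had been seen. This measure of likeness includes the difference between genotypes for which GH3.3 was picked.

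**Figure D4:**
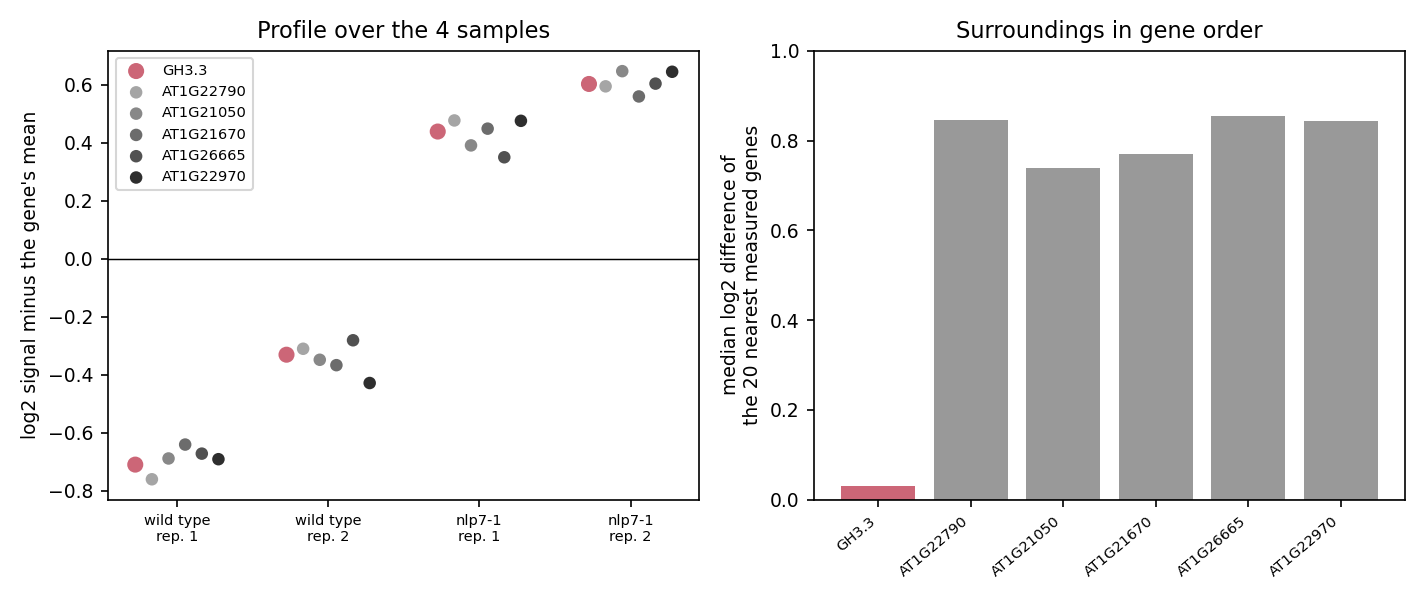
Left, the centred log2 signal (vertical axis) of GH3.3 and of the 5 genes with the nearest profile in each of the 4 samples, shifted sideways for legibility. Right, the median log2 difference of the 20 nearest tested genes in gene order, which was 0.03 around GH3.3 and 0.74 to 0.85 around the other 5.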

How the data were processed

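Whole-root RNA of 4 samples was measured on Affymetrix ATH1 arrays. The deposited values are linear intensity values per probe set, which per the submitters' processing notes come from MAS5, with no version given in the sources used here. Detection calls and scanner files were not analysed here. Of 22810 probe sets, 64 controls were left out. In GEO's annotation of the array 13513 of the rest name a single gene, 503 several and 8730 none. RefSeq's gene table for TAIR10.1 placed 13436 by identifier and gave symbols and gene order. As the files name no build, coordinates and sequences are not given. The brightest probe set stood for a gene.

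Signals were taken to log2 without a pseudocount. Probe sets with a mean log2 at or above the 40th percentile (signal 59.4) were kept, 13648 in all. The test of nlp7-1 against Col-0 was limma's (version 3.58.1, R 4.3.3; lmFit, eBayes with a trend, two-sided, Benjamini-Hochberg over all kept probe sets). On simulated data (5 draws of the 13648 probe sets, 200 of them changed) 59.6% of 2-fold and 95.4% of 4-fold changes were called, and 5.64% of calls were unchanged probe sets. The simulated noise was independent between samples and drawn from the fitted prior, without the shared deviations of same-numbered samples. These rates therefore need not hold for the arrays themselves. Only 2 arrays per genotype limit the precision. The p-values rest on the spread of a probe set between these samples, combined with a prior drawn from all kept probe sets.

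Genes looked at singly were GH3.3 and the GH3 genes and markers with a probe set of their own. To these were added list members past the test or with the 3 smallest p, the 5 nearest tested genes on each side, and the 5 nearest profiles. GH3.3 and the lists were chosen with earlier results of these data known. Alternatives were other filters, pseudocounts of 32 and 100, quantile normalization, median centring, a prior without trend, a block for the replicate number, and leaving out each sample in turn.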

Additional observations from a re-analysis of the deposited data

How the results depend on the processing

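The log2 difference of GH3.3 stayed above 0 in all 9 alternatives run for it, but GH3.3 was picked for this difference. As both nlp7-1 samples lay above both wild-type samples, leaving out a sample or adding a pseudocount could not turn its sign. Only its size is therefore read. The difference was 0.73 with a pseudocount of 100, which shrinks differences of low signals by construction, 0.92 with one of 32, and 0.85 to 1.23 with a sample left out. The number of other GH3 genes and of other auxin genes called in limma was 0 under the 8 alternatives that keep all 4 samples. With only 3 and 9 such genes above the filter and 2.27% of all probe sets called, a count of 0 carries little weight. Under the replicate block AT1G48690 and AT1G14120 came near the threshold (limma adjusted p = 0.0554 and 0.0662). The number of probe sets called over the whole table was 310. It was 116 with a variance prior without trend and 1290 with the replicate number as a block. With a sample left out it ran from 14 to 770, at 770 without wild type replicate 1, 35 without nlp7-1 replicate 2 and 14 without nlp7-1 replicate 1, where the spread comes from the 1 genotype that keeps 2 samples. Same-numbered samples deviated from their group means together (r = 0.44 across probe sets), but nothing in the labels says what a number stands for, and with 2 pairs it is not taken as a pairing. Under the replicate block GH3.3 was again 1.04, as it has to be where each number occurs once in each genotype. Among the other GH3 genes above the filter, GH3.17 changed sign without wild type replicate 1. Missing probe sets and low signal limit the rest. Only 11 of the 19 other GH3 loci and 21 of the 222 auxin loci had a probe set naming them alone. Of these, 8 of the 11 and 12 of the 21 were below the filter.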
